A study of Mus musculus with 6 samples.

Results

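The claudins, occludin and its relatives, and the desmosomal genes were followed in whole testes of 4-day-old FVB mice, comparing 3 Foxo1 null samples with 3 wild-type ones. Members were chosen by gene symbol in the annotation of the Illumina bead array: the numbered claudins other than Cldn5 and Cldn11, the desmocollins, desmogleins and plakophilins, and Ocln, Marveld2, Marveld3, Jup, Dsp, Ppl and Evpl. The rule found 66 probes of 37 genes, among 45281 probes and 19057 named genes on the array. Dsp, which encodes desmoplakin, had no named probe and was not analysed here. The single comparison, null against wild type, belongs to a study of Foxo1, a forkhead transcription factor, in spermatogonial stem cells. The labels name neither the allele nor any Cre driver, and do not say whether the samples came from separate animals, so p-values measure the spread between these samples.

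Claudins are 4-pass membrane proteins whose extracellular loops form the strands of tight junctions, and the set of claudins a cell makes decides how tight its paracellular seal is and which ions pass. Occludin, tricellulin (Marveld2) and Marveld3 are the MARVEL-domain proteins of the same junctions. Desmosomes join cells through the cadherins of the desmoglein and desmocollin families, whose tails bind plakoglobin (Jup) and plakophilins and, through desmoplakin, keratin or other intermediate filaments. In the testis, Sertoli cells later build a barrier from tight junctions and other contacts, for which claudin 11, claudin 3 and occludin are known, while epithelia of the genital ducts carry claudins of their own.

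Each array detected between 44.4% and 47.8% of all probes, with a median of 43 beads per probe. The Sertoli cell markers Sox9, Amh and Dhh were detected on all 6 arrays, as the testis label requires, and 13 of 18 genes on a Sertoli list were tested. Foxo1 itself was read by a pair of probes in opposite directions. At ILMN_2656498 null arrays had 6.37, 5.83 and 6.69 and wild-type arrays 8.08, 8.07 and 8.18 on the normalized log2 scale, a difference of -1.81 (adjusted p = 0.0273 by limma). At ILMN_2509340 null arrays had 8.82, 8.57 and 8.76 and wild-type arrays 5.69, 5.42 and 4.96, a difference of 3.36 (adjusted p = 0.00221 by limma). Where these probes lie relative to a deleted part was not analysed here, so neither checks the genotype. Null replicate 1 lay below the other null arrays at several claudins and epithelial markers, and the values that turn on it are given array by array. Wild-type replicate 1 was in turn the lowest wild-type array at some of these, such as Cldn10 ILMN_2515816, Krt14 and Krt19.

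Upstream bases of Cldn3, Cldn4 and Cldn6 are shown because these claudins had their highest values on the same array. They are the 250 bases before the start of the gene in RefSeq's GRCm38.p6, read 5′ to 3′ on the gene's own strand, with the sequence CAGGTG or its reverse complement CACCTG in capitals. This E-box is bound by repressors of epithelial genes such as Snail and Zeb.
Cldn3 (chr5:134985964-134986213, plus strand): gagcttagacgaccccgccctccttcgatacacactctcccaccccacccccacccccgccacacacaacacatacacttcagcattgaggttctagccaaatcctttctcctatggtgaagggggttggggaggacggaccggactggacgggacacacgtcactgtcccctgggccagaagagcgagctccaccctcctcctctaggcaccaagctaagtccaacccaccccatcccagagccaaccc
Cldn4 (chr5:134946935-134947184, minus strand): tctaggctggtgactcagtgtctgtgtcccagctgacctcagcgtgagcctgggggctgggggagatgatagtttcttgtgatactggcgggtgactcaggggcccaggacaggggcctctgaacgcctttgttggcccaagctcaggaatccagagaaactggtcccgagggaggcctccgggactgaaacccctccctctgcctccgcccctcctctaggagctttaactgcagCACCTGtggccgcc
Cldn6 (chr17:23679115-23679364, plus strand): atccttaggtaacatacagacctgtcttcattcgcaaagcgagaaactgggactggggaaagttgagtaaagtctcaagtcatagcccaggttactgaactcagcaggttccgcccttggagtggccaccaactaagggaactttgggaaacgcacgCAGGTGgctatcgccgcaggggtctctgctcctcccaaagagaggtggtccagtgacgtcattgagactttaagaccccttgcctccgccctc
Cldn4 and Cldn6 each held 1 such E-box, and Cldn3 held none in its window. Promoter windows were on hand for 18 of the 37 member genes, 29 windows in all, and 6 of these held the E-box, against 17.2% of 32851 windows of the same length. The FoxO core motif GTAAACA, searched with its reverse complement TGTTTAC, was in 0 of the 29 member windows and in 3.17% of all windows. The motifs do not overlap in these windows. These matches describe the letters only.

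Which junction genes the young testis expresses was read first from detection, a p-value under 0.05 against the array's negative control beads. Of the 66 probes, 28 were detected on no array, 15 on some arrays without meeting the minimum for testing, and 23 were tested because at least 3 of the 6 arrays detected them. By gene, 16 of 37 were tested, 9 were detected but not tested, and 12 were detected on no array. The member probes detected per array were 23, 26 and 29 in null replicates 1, 2 and 3, against 17, 17 and 19 in wild type. The null arrays thus lay above all wild-type arrays. Over the whole array the counts overlapped, with 21136, 20387 and 21665 probes in null against 20369, 20107 and 20518 in wild type.

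**Figure D1:**
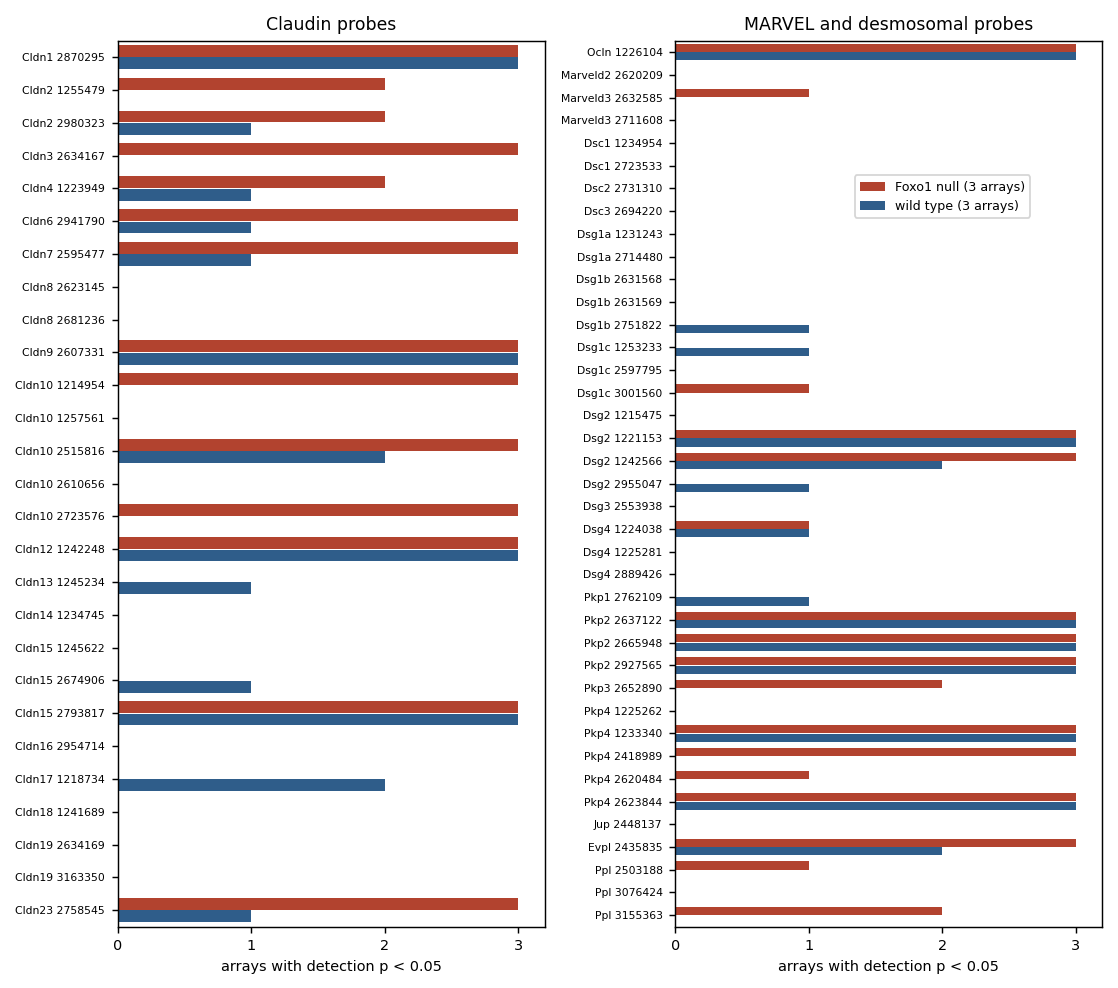
Number of arrays (0 to 3 per group) on which each of the 66 member probes was detected, for Foxo1 null (upper bar) and wild type (lower bar), with claudins on the left and the other members on the right; numbers after the symbols are the digits of the probe names. No desmocollin probe and no Jup probe has a bar, whereas Ocln, Dsg2, Pkp2 and Pkp4 each have a probe with full bars in both groups, and Cldn3 has bars in null only.

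The desmosome was represented by few of its genes. All 4 probes of the desmocollins Dsc1, Dsc2 and Dsc3 and the Jup probe were detected on no array, with normalized log2 values up to 5.05 and 4.90. The lowest value of any detected probe was 5.01 to 5.16, depending on the array, so these signals do not show that the transcripts are absent. Of 6 desmogleins, only Dsg2, the desmoglein of simple epithelia and heart, was tested. The skin and hair desmogleins Dsg1a and Dsg3 were detected on no array, and no probe of Dsg1b, Dsg1c or Dsg4 on more than 1 array of a group. Dsg1a, Dsg1b and Dsg1c are close copies of each other, and their probes may share signal. Among plakophilins, Pkp2, the form of heart and simple epithelia, and Pkp4, an armadillo protein also found at adherens junctions, were tested. Pkp1, a form of stratified epithelia, was detected on 1 wild-type array and Pkp3 on 2 null arrays.

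Among claudins, 11 of 18 genes were tested and 5 were detected on no array: Cldn8, Cldn14, Cldn16, Cldn18 and Cldn19. These are known from kidney, inner ear, stomach and lung. Cldn13 was detected on 1 wild-type array. Cldn1, Cldn9, Cldn12 and Cldn15 each had a probe detected on all 6 arrays. Of the MARVEL proteins Ocln was detected on all 6 arrays, Marveld3 on 1 null array and Marveld2 on none. Of the plakins of the cornified envelope, Evpl was tested, while Ppl was detected by 1 probe on 2 null arrays and by another on 1.

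In the comparison of null with wild type, 0 of the 23 tested member probes passed the threshold of an adjusted p of 0.05 (limma, Benjamini-Hochberg over all 20597 tested probes), where 0.136% of all tested probes did. Their adjusted p ran from 0.124 to 0.995 by limma. At an unadjusted p under 0.05, 9 member probes of 7 genes were higher in null, where 4.03% of all tested probes were, and 1 was lower, where 4.75% were. The 9 were at Cldn3, Cldn4, Cldn6, Cldn7, Cldn10 (3 probes), Cldn23 and Pkp4. Their number ran from 4 (without wild-type replicate 1) to 9 when 1 array was left out, with 5 without null replicate 2 and 6 without null replicate 3 or without wild-type replicate 2. It was 5 without background correction and with the authors' values, 6 with a trended robust prior, 11 with array weights, 3 of 15 tested probes at a detection p under 0.01, 0 of the 11 detected on all 6 arrays, and 5 of 16 genes with probes averaged. All 3 null arrays lay above all 3 wild-type arrays at 5 member probes (6.23% of all tested probes) and below them at 2 (7.73% of all tested probes). These counts are open to the filter: 4 of the 23 probes, at Cldn3, Cldn10 and Pkp4, were tested only because all null arrays detected them, and such probes had to differ. None was tested through wild-type arrays alone. Of the other higher probes, Cldn6, Cldn7 and Cldn23 were detected on 3 null arrays and 1 wild-type array, and Cldn4 on 2 and 1. These too met the minimum mainly through null arrays, so the count of 9 does not measure an excess over 4.03%.

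Among the 11 member probes detected on all 6 arrays, 1 had an unadjusted p under 0.05 and the median log2 difference was 0.01, in a range from -0.48 to 0.34; over all 17000 probes of that kind the median was 0.00338. Over the 23 tested member probes the median was 0.30, and over all 66, tested or not, 0.03, beside 0.00668 for all tested probes and 0.000411 for all probes on the array. Each of the 9 probes with higher values was detected on fewer than 6 arrays. In whole tissue, fewer or more cells of a type and less or more RNA per cell cannot be told apart.

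**Figure D2:**
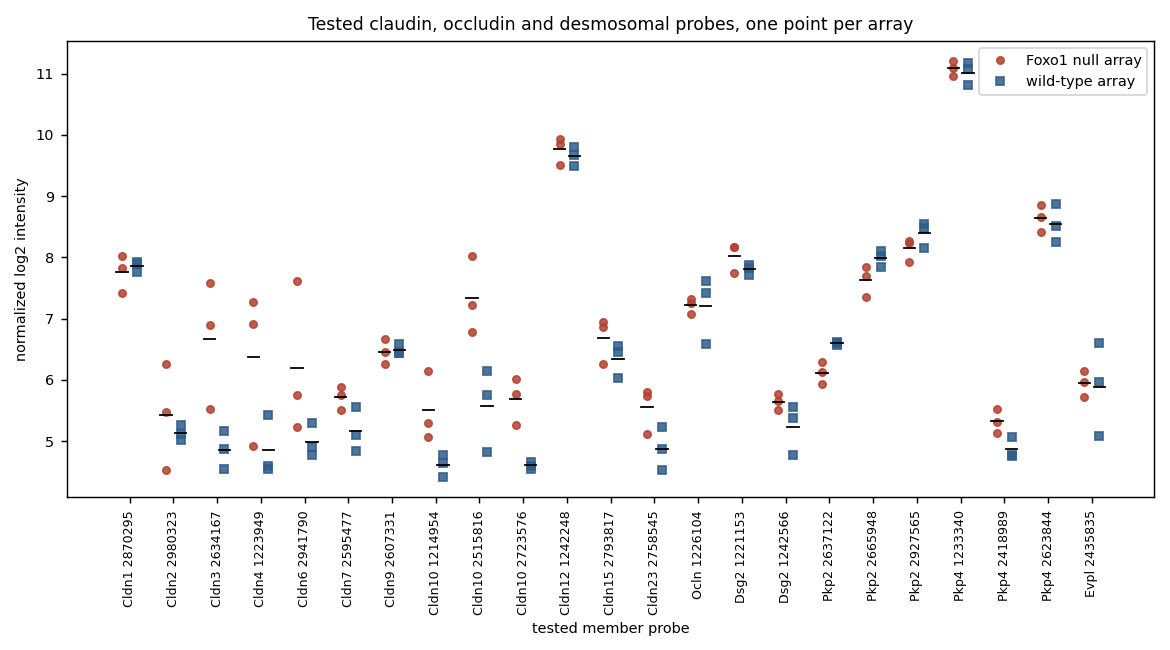
Normalized log2 intensity of the 23 tested member probes on each array, Foxo1 null (circles) left of wild type (squares), with the group mean as a bar. Values of Cldn3, Cldn4 and Cldn6 spread widely over the null arrays, from 4.92 to 7.61, whereas Cldn12, Pkp2 and Pkp4 at their bright probes lie close together.

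Cldn3, a sealing claudin also found in the barrier of adult Sertoli cells, had log2 values of 5.52, 7.58 and 6.90 in null replicates 1, 2 and 3, against 4.54, 5.16 and 4.87 in wild type. All null arrays lay above the wild-type arrays, on none of which it was detected. Such a probe has only an upper bound in wild type, so "at least" folds set the null mean against the lowest detected value or the probe's own, whichever is higher. The unnormalized scanner signals were 138, 286 and 252 in null and 103, 130 and 130 in wild type. The means were 6.67 ± 1.05 in null and 4.86 ± 0.31 in wild type (SD, n = 3 each), at least 2.88-fold higher in null, with an adjusted p = 0.252 by limma. The adjusted p by limma was 0.0228 without null replicate 1 and 0.531 without null replicate 2. The probe was tested only because the null arrays detected it, so the lower of these is not read as a call.

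Cldn4, a claudin of tight ductal and bladder epithelia and the neighbour of Cldn3 in the gene table, had 4.92, 7.28 and 6.91 in null replicates 1, 2 and 3, against 4.60, 5.42 and 4.54 in wild type. Null replicates 2 and 3 were high, and null replicate 1 did not detect the probe. The difference was 1.52 (SE 0.56), with an adjusted p = 0.459 by limma. Without null replicate 1 it was 2.24 (adjusted p = 0.0373, limma), and without null replicate 2 it was 1.06 (adjusted p = 0.79, limma). The first of these leaves out the null array that did not detect the probe, so it is not read as a call. In that setting 70 of all tested probes passed, against 28 with all arrays.

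Cldn6, a claudin of embryonic epithelia and pluripotent cells, had 5.23, 7.61 and 5.76 in null replicates 1, 2 and 3, against 4.78, 5.29 and 4.90 in wild type. A single array, null replicate 2, was far above the rest, and null replicate 1 lay under the highest wild-type array. The difference of 1.21 (SE 0.52, adjusted p = 0.564 by limma) was 0.51 without null replicate 2. Without background correction the differences were 0.69 at Cldn3, 0.59 at Cldn4 and 0.47 at Cldn6, on a scale that keeps the background in each signal. Cldn9, which is known from the inner ear and lies next to Cldn6 in the gene table, had 6.26, 6.66 and 6.46 in null against 6.44, 6.58 and 6.44 in wild type, a difference of -0.03 (95% interval -0.39 to 0.33).

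Cldn2, which forms a cation and water pore in leaky epithelia such as the proximal tubule, had a tested and an untested probe with a like order of null arrays. At the tested probe null replicates 1, 2 and 3 had 4.53, 6.26 and 5.47, and wild-type arrays 5.01, 5.11 and 5.26, a difference of 0.30 (95% interval -0.55 to 1.14). The other probe had 4.41, 6.09 and 5.81 in null and 4.62, 4.95 and 4.75 in wild type, where no array detected it. Null replicate 1 detected neither probe.

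Cldn10, whose splice forms make either cation or anion pores, had higher values in null at each of its 3 tested probes. At ILMN_2515816 null arrays had 6.78, 7.22 and 8.03 and wild-type arrays 4.83, 6.15 and 5.76. The groups did not overlap, null replicate 3 was the highest, and the difference was 1.77 (SE 0.39, adjusted p = 0.188 by limma). When 1 array was left out, it ran from 1.39 (without wild-type replicate 1, adjusted p = 0.402 by limma) to 2.05. At ILMN_2723576, annotated to the same transcript, null arrays had 5.26, 5.77 and 6.01 and wild-type arrays 4.55, 4.66 and 4.60, at least 1.46-fold higher in null (adjusted p = 0.124 by limma, the smallest of the members). ILMN_1214954, annotated to another transcript, was at least 1.29-fold higher in null, with 5.07, 5.29 and 6.15 in null and 4.77, 4.42 and 4.64 in wild type (adjusted p = 0.356 by limma). No wild-type array detected the last 2 probes, and 2 further Cldn10 probes were detected on no array. By limma the adjusted p of ILMN_2723576 was 0.0346 without null replicate 1 and 0.041 with array weights, which is not read as a call either, since this probe too was tested only through the null arrays.

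Cldn7, a claudin of ducts and gut, had 5.88, 5.76 and 5.51 in null against 5.10, 4.84 and 5.56 in wild type, a difference of 0.55 (SE 0.21, adjusted p = 0.483 by limma). Cldn23 had 5.12, 5.80 and 5.73 in null against 4.53, 4.87 and 5.23 in wild type, a difference of 0.67 (SE 0.24, adjusted p = 0.451 by limma). At both claudins the groups overlapped through wild-type replicate 3, which lay above the lowest null array. Null replicate 1 was the highest null array at Cldn7 and the lowest at Cldn23.

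Several markers of duct epithelium, as in the epididymis and rete, were also high on null replicates 2 and 3. Cdh16, a cadherin of kidney and genital duct epithelium, had 7.57, 10.28 and 9.54 in null replicates 1, 2 and 3, against 6.13, 7.21 and 6.66 in wild type. Lcn2, a lipocalin, had 8.06, 11.27 and 9.13 in null against 6.23, 8.03 and 7.01 in wild type. Both were highest on null replicate 2, the array on which Cldn2, Cldn3, Cldn4 and Cldn6 were highest. Wfdc10, the brightest listed duct probe, had 11.32, 12.78 and 12.78 in null against 12.28, 11.80 and 12.42 in wild type, a difference of 0.13 (SE 0.38). Wfdc2 had 9.15, 11.24 and 10.53 in null against 9.37, 9.05 and 9.80 in wild type, a difference of 0.90 (SE 0.47). At these 2 genes the groups overlapped and null replicate 1 lay under 3 and 2 wild-type arrays.

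Krt19, a keratin on both the duct and the mesothelium list, was highest on null replicate 3, with 5.67, 6.15 and 7.40 in null against 4.38, 5.38 and 5.01 in wild type. Msln, which encodes mesothelin, had 5.32, 6.32 and 7.0 in null against 4.63, 5.68 and 5.58 in wild type. Upk1b, a uroplakin of the mesothelium list, had 6.82, 7.31 and 8.20 in null against 5.14, 7.14 and 6.10 in wild type. Null replicate 3 was the highest and null replicate 1 the lowest null array at these 3 genes, as at Cldn10. The groups overlapped at Msln and Upk1b and not at Krt19. They also overlapped at each tested probe of Upk3b, the brightest tested gene of the mesothelium list. At ILMN_2941714 it had 7.83, 8.81 and 9.47 in null against 6.07, 8.39 and 7.70 in wild type, a difference of 1.32 (SE 0.59).

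Of the 17 duct genes listed, 9 were tested and 0 passed by limma. At an unadjusted p under 0.05, 6 had a probe higher in null, where 4.03% of all tested probes were. Pax8, among these 6, was tested only because all null arrays detected it. The summed normalized intensity of the tested duct genes was 4560, 15100 and 11500 in null replicates 1, 2 and 3, against 6540, 5440 and 7530 in wild type. The groups overlapped through null replicate 1 alone; the other null arrays lay above all wild-type arrays. Wfdc10, the brightest probe, weighs heavily in these sums. Epcam, Emx2, Pax2 and Adam7 were detected on no array. For mesothelium, 5 of 8 genes were tested, 3 had a probe higher at that p, and the sums were 474, 838 and 1430 in null against 176, 631 and 404 in wild type. For epidermis, 7 of 14 were tested and 3 had a probe higher at that p, with sums of 1440, 2590 and 2100 in null against 1560, 1620 and 1480 in wild type. In both lists the overlap again came from null replicate 1. Krt10, the brightest epidermis probe, weighs heavily in the epidermis sums. It was lowest on null replicate 1 and differed by -0.02 between groups. At Krt14 null replicate 1 lay above all wild-type arrays. Dmkn, on the same list, had 6.90, 6.66 and 7.27 in null against 5.02, 5.88 and 5.57 in wild type at ILMN_3105563. The difference was 1.45 (adjusted p = 0.0992 by limma), and null replicate 1 was not the lowest null array. It was 1.63 at ILMN_1229763 (adjusted p = 0.0992 by limma) and 0.21, with overlapping groups, at ILMN_3032088. Krt1, Krt5, Ivl, Sfn and Perp were detected on no array.

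In the germ cell list, 15 of 18 genes were tested and 13 were lower at an unadjusted p under 0.05, 2 of which passed by limma. Over the array 4.75% of all tested probes were lower at that p. Nanos3, among the 13, was tested only because all wild-type arrays detected it. Germ cell sums were 2040 to 3360 in null and 5090 to 8530 in wild type. Dppa3 and Mael were detected on no array. Sertoli sums overlapped, at 75500 to 95200 in null and 75000 to 85000 in wild type, with Gata1 detected on no array. Aard, the brightest Sertoli probe, weighs heavily in these sums. Of 16 tested Sertoli probes, 1 was lower in null (Rhox5, -0.87) and 1 higher (the dimmer Sox9 probe, 0.49) at the same unadjusted p. Endothelial sums were 4650 to 5800 in null and 4140 to 4350 in wild type (12 of 13 genes tested, 2 higher at the same unadjusted p). Macrophage sums were 4230 to 8180 in null and 4100 to 6440 in wild type (12 of 15 tested, 7 higher at that p, Fcer1g detected on no array). Over the array 4.03% of all tested probes were higher at that p. The part of these cell types in the claudin values was not tested.

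**Figure D3:**
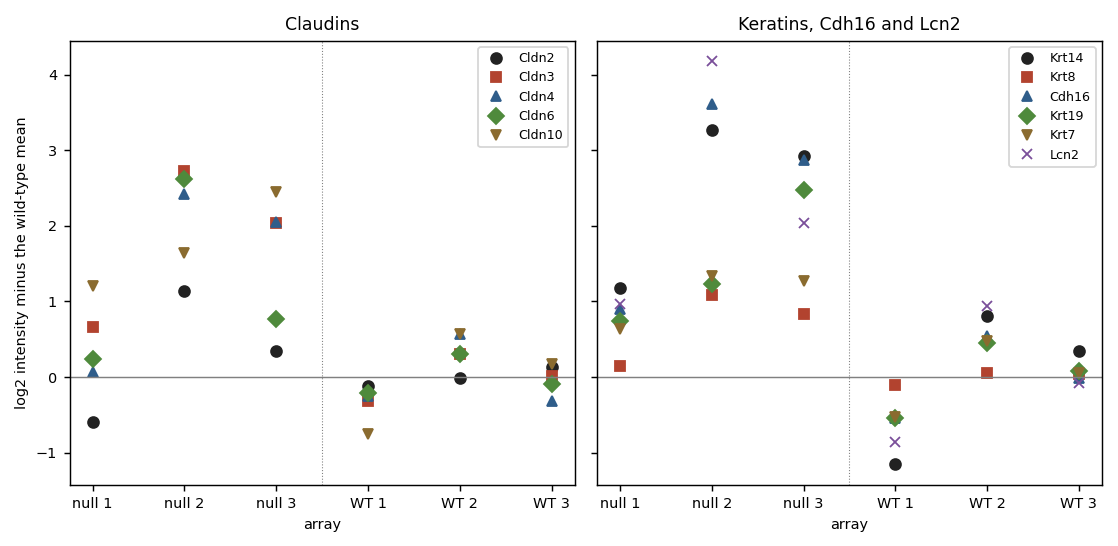
Log2 intensity of 5 claudins (left, Cldn10 at ILMN_2515816) and of 6 epithelial markers (right) on each array, minus the probe's wild-type mean (the line at 0). Null replicate 2 is the highest array for Cldn2, Cldn3, Cldn4, Cldn6, Cdh16, Lcn2 and Krt14, null replicate 3 for Cldn10 and Krt19, and null replicate 1 is the lowest null array for each gene shown. The genes shown are a selection. At Cldn7 and Pkp4 ILMN_2418989, not shown, null replicate 1 was the highest null array. The groups overlapped at Wfdc10 and Wfdc2, also not shown.

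The claudins detected on every array differed by 0.34 or less. Cldn12, a widely expressed claudin, had 9.51, 9.86 and 9.93 in null and 9.81, 9.68 and 9.49 in wild type, a difference of 0.11 (95% interval -0.28 to 0.50). Cldn1, needed for the skin barrier, had 7.42, 7.83 and 8.03 in null and 7.89, 7.92 and 7.77 in wild type, a difference of -0.10 (95% interval -0.52 to 0.32). Cldn15, a sodium pore of the gut, had 6.26, 6.87 and 6.94 in null and 6.03, 6.56 and 6.45 in wild type, a difference of 0.34 (95% interval -0.18 to 0.87). The groups overlapped at all 3 claudins. Cldn17, an anion pore, was detected on 2 wild-type arrays and no null array; it was not tested and was at least 1.02-fold lower in null.

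Occludin showed no difference that these arrays could resolve. Ocln had 7.07, 7.32 and 7.26 in null replicates 1, 2 and 3, against 7.42, 7.61 and 6.58 in wild type. The null values lay within the wild-type range, and the difference was 0.01 (95% interval -0.58 to 0.61, adjusted p = 0.995 by limma). Wild-type replicate 3 was the lowest array; without it the difference was -0.30.

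In the desmosome, Dsg2 had at its brighter probe 8.17, 8.17 and 7.75 in null against 7.82, 7.88 and 7.72 in wild type, a difference of 0.22 (95% interval -0.15 to 0.60). At the dimmer tested probe null arrays had 5.77, 5.50 and 5.65 and wild-type arrays 4.77, 5.38 and 5.55, a difference of 0.41 (SE 0.22, adjusted p = 0.654 by limma). The groups overlapped at both, and the other 2 Dsg2 probes were detected on at most 1 array.

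Pkp2, which links desmosomal cadherins to desmoplakin, had a lower mean in null at each of its 3 probes, and these differences did not pass the test. At ILMN_2637122 null arrays had 6.13, 5.94 and 6.29 and wild-type arrays 6.62, 6.57 and 6.61, a difference of -0.48 (SE 0.15, adjusted p = 0.371 by limma). At ILMN_2665948 they were 7.70, 7.84 and 7.35 in null and 7.84, 8.02 and 8.10 in wild type, a difference of -0.36 (SE 0.17, adjusted p = 0.617 by limma). The third probe had 8.24, 8.27 and 7.93 in null and 8.48, 8.55 and 8.16 in wild type, a difference of -0.25 (SE 0.17, adjusted p = 0.766 by limma). All null arrays lay below all wild-type arrays at the first 2 of these probes and overlapped them at the third; at ILMN_2665948 the gap between the groups was smaller than the rounding of the values. No alternative setting that was tried turned the sign at any of the 3.

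Pkp4 had 11.20, 11.10 and 10.97 in null against 11.08, 11.17 and 10.81 in wild type at its brightest probe, a difference of 0.07 (95% interval -0.29 to 0.43). A second bright probe had 8.85, 8.42 and 8.66 in null against 8.51, 8.87 and 8.25 in wild type, a difference of 0.10 (95% interval -0.36 to 0.56). The probe ILMN_2418989, annotated to another transcript and detected on null arrays only, had 5.53, 5.14 and 5.31 in null against 4.77, 5.07 and 4.75 in wild type, at least 1.14-fold higher in null (adjusted p = 0.456 by limma). The groups overlapped at both bright probes and not at this one, and of the other 2 Pkp4 probes 1 was detected on 1 null array and the other on none.

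Of the cornified envelope plakins, Evpl had 5.72, 6.15 and 5.96 in null against 5.96, 5.08 and 6.60 in wild type, a difference of 0.06 (SE 0.34, adjusted p = 0.983 by limma). Its wild-type arrays spanned the null arrays on both sides. Ppl, which pairs with envoplakin, was not tested; its brightest probe had 4.80, 5.78 and 5.58 in null against 4.46, 4.91 and 4.44 in wild type, with null replicates 2 and 3 above the rest.

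**Figure D4:**
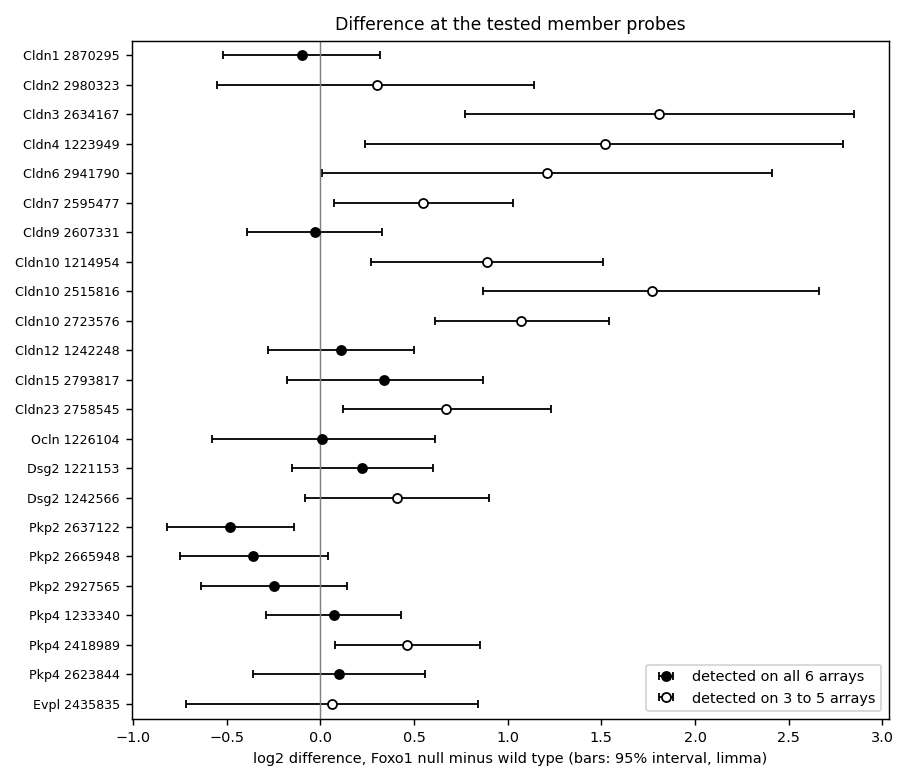
Log2 difference, Foxo1 null minus wild type, at the 23 tested member probes with its 95% interval from limma, not adjusted for the number of probes; filled points were detected on all 6 arrays and open points on fewer. The intervals that lie above 0 belong to open points (Cldn3, Cldn4, Cldn6, Cldn7, Cldn10, Cldn23 and Pkp4), and the filled points lie between -0.48 and 0.34. At 1 filled point, Pkp2 ILMN_2637122, the interval lies below 0 (-0.82 to -0.14).

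The partners of these proteins were read from lists of other junction genes. Of 40 tested probes of 22 further tight junction genes, 0 passed by limma, and 3 were higher and 1 lower in null at an unadjusted p under 0.05. Of all tested probes 4.03% were higher and 4.75% lower at that p. Patj, a scaffold of the Crumbs complex, differed by 0.72 (SE 0.16, adjusted p = 0.19 by limma) at 1 probe and by -0.40 (SE 0.32) at another. Prkcz, an atypical protein kinase C of cell polarity, differed by -1.03 (SE 0.36), -0.33 (SE 0.17) and -0.04 (SE 0.15) at its 3 tested probes. The cytoplasmic plaque protein Cgn and the endothelial adhesion molecule Esam differed by 0.40 each (adjusted p = 0.498 and 0.504 by limma). The Esam probe was also counted in the endothelial list.

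Of 26 tested probes of 14 adherens junction genes (cadherins, catenins and nectins), 0 passed by limma and 0 had an unadjusted p under 0.05. Ctnna2, an alpha catenin, had 9.59, 10.13 and 9.85 in null against 9.61, 9.36 and 9.73 in wild type, with overlapping groups. Cdh1, the epithelial cadherin, had 6.86, 8.18 and 7.66 in null replicates 1, 2 and 3, against 7.69, 7.28 and 7.44 in wild type, a difference of 0.10 (SE 0.31). The probe was detected on all 6 arrays, with null replicate 2 the highest and null replicate 1 the lowest.

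Among 11 tested probes of 7 intermediate filament and other desmosome-associated genes, 0 passed by limma. At an unadjusted p under 0.05, 3 were higher in null, where 4.03% of all tested probes were. The Krt14 and Krt8 probes among these 3 were also counted in the epidermis and duct lists. Krt14, a keratin of basal epithelial cells, had 7.33, 9.42 and 9.08 in null replicates 1, 2 and 3, against 5.0, 6.96 and 6.50 in wild type, a difference of 2.46 (SE 0.62, adjusted p = 0.252 by limma). Krt8, a keratin of simple epithelia, had 9.19, 10.13 and 9.87 in null against 8.94, 9.10 and 9.08 in wild type, a difference of 0.69 (SE 0.24, adjusted p = 0.422 by limma). Des, the muscle intermediate filament, differed by 0.55 (SE 0.23, adjusted p = 0.531 by limma). The null arrays lay above the wild-type arrays at these 3 probes, as at 6.23% of all tested probes. At Krt18, on the same list, the groups overlapped (unadjusted p = 0.0534 by limma).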

How the data were processed

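Whole-testis RNA was measured on 6 Illumina bead arrays of 1 slide. Trizol extraction, an RNeasy clean-up and amplification to biotinylated cRNA came first, per the labels' protocols, and the submitters' processing notes name BeadStudio, with no version or settings. The deposited table holds, per the file headers, a mean intensity for each probe, a bead standard error (a signal value), a count of beads and the p-value of detection. The authors' normalized intensity table served as an alternative.

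Scanner intensities were corrected, quantile-normalized and put on a log2 scale with neqc (limma 3.58.1, R 4.3.3; offset 16). Probes detected at p under 0.05 on at least 3 of 6 arrays were fitted with lmFit and eBayes, null minus wild type, two-sided, with Benjamini-Hochberg adjustment over all 20597 probes; the fit was tested on simulated data. "At least" folds compare the detecting group's mean with, per undetecting array, the higher of the lowest detected value and the probe's own. Probes were named from the platform annotation; all 37 symbols matched the gene table of GRCm38.p6 by Entrez number and 0 changed. The members and lists were chosen with earlier results of these data known. Array values were given for the brightest tested member of each role, members with an unadjusted p under 0.05 and a fixed gene set. The set was Cldn3, Cldn4, Cldn6, Cldn7, Ocln, Marveld2, Dsp, Jup, Dsg2, Dsc2, Pkp2 and Pkp4, of which Marveld2, Dsp, Jup and Dsc2 were not tested. Those of Cldn1, Cldn2, Cldn9, Cldn15 and Ppl, and of Cdh1, Dmkn and the duct and mesothelium markers, were added after their values were seen. Summed list levels take the probe with the highest mean per tested gene. The alternatives covered background, normalization, filter, variance model, weights, replicate block, array position, threshold, averaging of probes and leaving out each array. The number of arrays limits the precision.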

Additional observations from a re-analysis of the deposited data

How the results depend on the processing

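Under 20 alternative settings the count of member probes past the threshold, 0 with limma (10 at an unadjusted p under 0.05), was 1 with array weights (Cldn10) and 1 with the replicate block (Cldn10 ILMN_2515816, 1.77, adjusted p = 0.0441), and 0 to 3 when 1 array was left out; the highest, 3, came without null replicate 1 (Cldn3, Cldn4 and Cldn10). Of these, Cldn3, Cldn10 and the Cldn10 probe passing with array weights were tested only because null arrays detected them, and had to differ. Cldn4 passed only with the null array that did not detect it left out. The count of member probes was 0 in all other settings. The count over all tested probes, 28, was 53 without background correction, 87 with an offset of 50, 14 with median scaling, 2 with no filter, 18 with detection on all 6 arrays, 103 with a trended robust prior, 109 with array weights, 68 with the replicate block, 76 at an adjusted p under 0.1, 17 with probes of a gene averaged, and 1 to 70 when 1 array was left out. The cause was not tested. Median scaling put the median of all tested probes at 0.118, and that of the member probes at 0.356.

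The median of the tested member probes, 0.295, ran from 0.0142 (11 probes detected on all 6 arrays) to 0.397 (leaving out the third wild-type array). The median member level per array had an SD of 0.56 in the more variable group, which is a spread of levels and not of differences. Without background correction the differences were smaller: 0.69 at Cldn3, 0.59 at Cldn4, 0.47 at Cldn6 and 0.78 at Cldn10 ILMN_2515816. Of 343 values of 19 named probes, 323 kept sign and side of the threshold and 5 newly passed. The sign turned in 15, which were those at Ocln, Evpl and the bright Pkp4 probes. Ocln was at -0.0083 without background correction, -0.0081 with the authors' values, -0.10 with array weights, -0.017 with array position, and -0.30 to 0.22 with 1 array left out. Evpl was at -0.0026 without background correction, -0.0048 with the authors' values and -0.34 to 0.42 with 1 array left out. Pkp4 ILMN_1233340 was at -0.018 with array weights and -0.035 to 0.15 with 1 array left out, and Pkp4 ILMN_2623844 at -0.047 to 0.26.

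Deviations of same-numbered arrays of the groups had correlations of 0.16, -0.10 and 0.11, and those of unlike-numbered arrays ran from -0.18 to 0.09. With same-numbered values of both signs, the numbers were not taken as pairs. The 68 probes called with the replicate block, against 28 without it, are therefore no measure of a paired effect. Signals near background limit what can be read of most desmosomal genes.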
